A study of Mus musculus with 10 samples.

Results

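The transcription factors that specify the neural crest and drive the epithelial-to-mesenchymal transition (EMT) were followed as a group of 10 genes, Twist1, Twist2, Snai1, Snai2, Zeb1, Zeb2, Sox9, Sox10, Foxd3 and Ets1, in the frontonasal prominence (FNP) of mouse embryos at E10.5. The members were taken by gene symbol, and all 10 were found among the 35542 genes of the count table. RNA was sequenced from 4 libraries of Smchd1 MD1/MD1 embryos (MD1, labelled 2 males and 2 females) and 6 libraries of Smchd1 WT/WT embryos (WT, labelled 3 males and 3 females), all on the FVB/NJ strain. MD1 is the MommeD1 allele, a loss-of-function allele of Smchd1, which encodes a chromatin protein required for X inactivation and for the silencing of several autosomal gene clusters. The allele is carried by every cell of the embryo and not only by the crest, and the tissue was taken whole, so each value is a mean over mesenchyme, ectoderm, endothelium and blood. The comparison of MD1 with WT asks which genes depend on Smchd1 in the tissue that forms the forehead and nose.

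The mesenchyme of the FNP descends largely from the cranial neural crest, cells that leave the dorsal neural tube by an EMT and migrate into the face. TWIST, SNAIL and ZEB proteins bind E-boxes in DNA, and the SNAIL and ZEB proteins repress the E-cadherin gene Cdh1 and other epithelial genes there. SOX9, SOX10, FOXD3 and ETS1 are specifiers that give crest cells their identity. Crest cells that become facial mesenchyme keep Twist1 and go on to use Sox9 for cartilage. Sox10 is kept mainly in crest cells that become glia, neurons or melanocytes, and Foxd3 is a factor of early crest cells.

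None of the 9 factors that could be tested passed the test of MD1 against WT. By edgeR's quasi-likelihood test with Benjamini-Hochberg adjustment over all autosomal genes, 0 of the 9 passed the threshold of 0.05, beside 12 of all 15452 genes, which is 0.0777%. At an unadjusted p under 0.05, 0 of the 9 were called, beside 9.79% of all genes tested. DESeq2, limma-voom and limma on log2 RPKM also called 0 of the 9 after adjustment. At the unadjusted level DESeq2 called 0, and each of the other 2 methods called 1. The share of all genes at that level was not counted for these methods, so nothing is read from these counts. In the edgeR fit the lowest adjusted p among the 9 was 0.51 for Ets1. Its log2 fold changes lay between −1.06 for Sox10 and 0.18 for Zeb1. Expressed as log2 fold changes, 4 of the 9 were above 0 and 5 below, where 49.5% of all genes were below 0. The median over the 9 was −0.02, against 0.0029 over all genes. The ranges of the MD1 and WT libraries overlapped for all 10 factors, whereas 2.05% of all genes tested did not overlap.

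The libraries held 4195119 to 24125084 counts, the fewest in MD1 male replicate 3. Smchd1 itself was at 78.6 ± 20.8 CPM in MD1 (n = 4) and 246 ± 14.0 CPM in WT (n = 6; SD; CPM is counts per 1000000 of the scaled library), with a log2 fold change of −1.65 ± 0.15 (SE) and an edgeR adjusted p of 7.5e-04. The library labelled MD1 female replicate 1 went against its sex label, in that its Ddx3y, a Y-linked gene, was at 88.2 CPM and its Xist at 204 CPM. WT males held 78.2 to 91.4 CPM of Ddx3y, and WT females held 2594 to 2695 CPM of Xist. Xist was at 0.596 to 2.077 CPM in WT males and 1.596 to 1.692 CPM in MD1 males. The Xist level of the library labelled MD1 female replicate 1 thus lay between the sexes, and the reason was not tested. MD1 female replicate 4 stood apart on the first principal component, at −89.0 against −8.53 to 35.7 in the other 9 libraries. Its summed level of 12 hypoxia-response genes was 13170 CPM, against 1488 to 2907 CPM in the other MD1 libraries and 1182 to 2864 CPM in WT. MD1 male replicate 3 stood apart on the second component. The labels do not say whether libraries came from separate embryos, so p-values measure only the spread between these libraries.

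The E-box, the site that TWIST, SNAIL and ZEB proteins read, was searched for in the promoters of the factors themselves. RefSeq promoters on GRCm38.p6 were given for 5 of the 10 (Twist1, Twist2, Snai1, Zeb2 and Foxd3), each 300 bases long with 250 before the transcript start and 50 after it. The motif CANNTG, which reads the same on both strands, was found in Snai1 and in Foxd3. No match was found in Twist1, Twist2 or any of the 4 starts of Zeb2. Among all 32851 promoters of the table, 72.3% held CANNTG, and 20.2% held CACCTG or CAGGTG, the forms of this motif that SNAIL and ZEB proteins are known to bind. The 250 bases upstream of the start are shown for the promoters with a match and for Twist1, the most abundant factor, which had none. They lie on the plus strand at chr2:167537945-167538194 for Snai1, chr4:99656049-99656298 for Foxd3 and chr12:33957421-33957670 for Twist1, and the capitals mark the E-box.
Snai1: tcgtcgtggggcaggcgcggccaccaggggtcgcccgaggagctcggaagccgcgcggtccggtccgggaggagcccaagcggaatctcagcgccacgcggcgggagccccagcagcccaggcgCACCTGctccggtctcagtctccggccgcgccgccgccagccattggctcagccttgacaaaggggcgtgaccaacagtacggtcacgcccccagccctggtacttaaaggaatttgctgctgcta
Foxd3: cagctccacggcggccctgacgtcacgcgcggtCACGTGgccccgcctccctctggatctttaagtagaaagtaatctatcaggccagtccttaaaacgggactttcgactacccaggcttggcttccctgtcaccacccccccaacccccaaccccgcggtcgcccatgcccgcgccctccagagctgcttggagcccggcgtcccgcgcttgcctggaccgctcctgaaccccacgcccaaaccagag
Twist1: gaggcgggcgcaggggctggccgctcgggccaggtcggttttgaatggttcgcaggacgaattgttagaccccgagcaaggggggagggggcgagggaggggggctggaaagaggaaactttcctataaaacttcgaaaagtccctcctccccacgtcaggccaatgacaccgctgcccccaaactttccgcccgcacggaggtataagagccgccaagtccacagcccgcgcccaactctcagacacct
The match in Snai1 was CACCTG at position −126 from the start, and that in Foxd3 was CACGTG at position −217. A match in such a window is a description of its letters and not a binding site.

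Levels of different genes were compared on the deposited log2 RPKM scale, which accounts for transcript length. Twist1 was the most abundant factor, with a mean level of 6.41 log2 RPKM over the 10 libraries, higher than 98.3% of the genes that passed the filter on low counts. Sox9 followed at 4.84, Snai1 at 4.23, Ets1 at 3.26, Zeb1 at 3.14, Snai2 at 2.92, Twist2 at 1.39 and Zeb2 at 1.14 log2 RPKM. Sox10 at −1.85 and Foxd3 at −4.15 log2 RPKM were far below, with 5.79% and 0.162% of the filtered genes at or under their level. Both means include replacement values for libraries with 0 reads. Twist1 and Sox9, which crest mesenchyme keeps or goes on to use, thus led the order, and Sox10 and Foxd3 closed it.

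The order of the 10 mean levels was identical in MD1 and in WT, and the order over all libraries stayed the same when any single library was left out. Within MD1, Twist2 and Zeb2 changed places without replicate 1, at 1.004 and 1.053 log2 RPKM. Some neighbours in the order were not separated in every library. Ets1 was above Zeb1 in 8 of 10 libraries with a mean gap of 0.11 log2 RPKM, Zeb1 was above Snai2 in 7 with a gap of 0.23, and Twist2 was above Zeb2 in 8 with a gap of 0.25. Sox9 was above Snai1 in 9 libraries, and Sox10 above Foxd3 in 9. The exception for Sox10 was MD1 female replicate 4, where both genes had 0 reads and both values are replacements for 0. The other neighbours were separated in all 10 libraries.

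**Figure D1:**
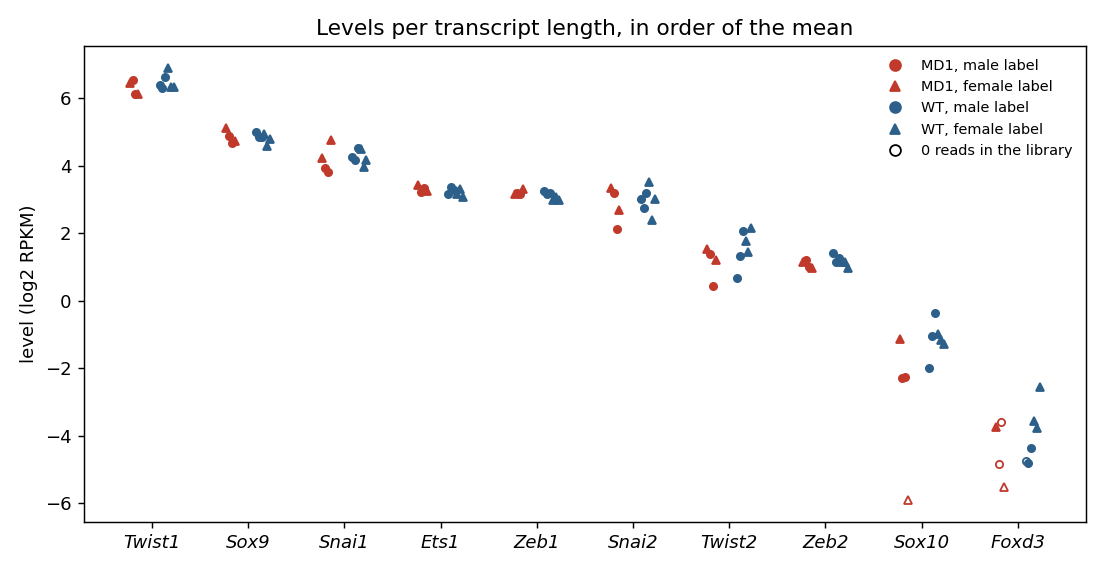
Deposited log2 RPKM (y axis) of each factor (x axis, in order of the mean) in every library, with MD1 libraries in red to the left and WT libraries in blue to the right. Circles are libraries with a male label, triangles libraries with a female label, and open symbols libraries with 0 reads, where the deposited value is a replacement for 0. Twist1 is highest and Foxd3 lowest in both genotypes.

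Twist1 encodes a basic helix-loop-helix factor needed for the survival and mesenchymal fate of cranial crest cells, and it lies at chr12:33957671-33959829 (GRCm38, plus strand, 2 exons). It was at 155.0, 166.7, 129.0 and 151.8 CPM in the MD1 libraries (labelled female replicate 1, male replicate 2, male replicate 3 and female replicate 4), against a lowest value of 141.0, a median of 150.4 and a highest of 216.5 CPM in WT. Only MD1 male replicate 3 lay below the WT range, and WT female replicate 4 was the highest of all 10. MD1 against WT gave a log2 fold change of −0.12 (95% interval −0.39 to 0.16; edgeR adjusted p = 0.73).

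Twist2, a close relative best known from dermal and skeletal precursors, lies at chr1:91801461-91848028 on the plus strand with 2 exons. It was at 10.1, 9.17, 4.83 and 9.89 CPM in the MD1 libraries, in the order of replicates 1 to 4, against a lowest value of 5.70, a median of 10.8 and a highest of 15.4 CPM in WT. The replicate 3 value was again the only one below the WT range. Its log2 fold change was −0.34 with the wide 95% interval of −0.94 to 0.26 (edgeR adjusted p = 0.64). Of its exon bases, 46.5% are shared with Gm29100 on the opposite strand, and in unstranded libraries the reads of the pair cannot be told apart.

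Twist1 and Twist2 were also the most variable factors for their abundance among WT libraries. The coefficient of variation of Twist1 was 17.7%, at or above that of 96.8% of genes at 50 CPM or more, whose median was 6.84%. That of Twist2 was 33.6%, at or above 95.7% of genes between 5 and 20 CPM, whose median was 13.7%. The division of genes by level was chosen after the values were seen.

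Snai1, the zinc-finger repressor needed for EMT at gastrulation in the mouse, lies at chr2:167538195-167542814 on the plus strand with 3 exons. It was at 33.2, 27.7, 25.9 and 58.5 CPM in MD1 replicates 1 to 4, against a lowest value of 28.0, a median of 33.6 and a highest of 40.4 CPM in WT. MD1 female replicate 4 was the highest of all 10 libraries, while both MD1 males were just below the lowest WT library. For all libraries the log2 fold change was 0.08 (95% interval −0.37 to 0.53; edgeR adjusted p = 0.89), and it was −0.24 without MD1 female replicate 4. The hypoxia-response sum was also highest in that library, and its part in the Snai1 level was not tested.

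Snai2, or Slug, is known from the chick for its part in crest EMT, and it lies at chr16:14705852-14709385 on the plus strand with 3 exons. It was at 22.3, 20.4, 9.91 and 17.6 CPM in MD1 replicates 1 to 4, against a lowest value of 11.9, a median of 18.2 and a highest of 25.8 CPM in WT. The groups lay over each other except for MD1 male replicate 3, the lowest of all 10. A log2 fold change of −0.02 was fitted (95% interval −0.53 to 0.48; edgeR adjusted p = 0.98), which was 0.15 without that library. The WT libraries had a coefficient of variation of 26.2%, at or above that of 90.4% of genes of like level.

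Single WT libraries were high or low for several factors at a time. WT female replicate 4 had the highest Twist1 and Snai2 (25.8 CPM) and a Snai1 level of 40.2 CPM, next to the highest, while WT female replicate 5 had the lowest Snai1, Snai2 and Sox9 (111 CPM). In MD1, male replicate 3, the shallowest library, was the lowest of the 4 for Twist1, Twist2, Snai1, Snai2, Zeb2 and Sox9. These are descriptions of single libraries and were not tested.

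Zeb1, a zinc-finger and homeodomain repressor of epithelial genes, lies at chr18:5591860-5775467 on the plus strand with 16 exon blocks. It was at 100.1, 104.0, 103.7 and 137.7 CPM in MD1 replicates 1 to 4, against a lowest value of 89.1, a median of 98.8 and a highest of 110.5 CPM in WT. Only MD1 female replicate 4 was above the WT range. Its log2 fold change was 0.18 (95% interval −0.04 to 0.41; edgeR adjusted p = 0.53), and it was 0.067 without that library.

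Zeb2, the relative whose loss in humans gives Mowat-Wilson syndrome with its crest defects, lies at chr2:44983632-45117395 on the minus strand with 18 exon blocks. It was at 49.1, 51.5, 45.4 and 53.5 CPM in MD1 replicates 1 to 4, against a lowest value of 43.7, a median of 50.1 and a highest of 61.0 CPM in WT. All 4 MD1 libraries were inside the WT range. Between the genotypes the log2 fold change was −0.03 (95% interval −0.24 to 0.18; edgeR adjusted p = 0.91).

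Sox9, the SOX factor of crest specification and later of cartilage, lies at chr11:112782224-112787760 on the plus strand with 3 exons. It was at 157.5, 135.3, 119.4 and 148.5 CPM in MD1 replicates 1 to 4, against a lowest value of 111.1, a median of 129.1 and a highest of 148.5 CPM in WT. The library labelled MD1 female replicate 1 was above the WT range, and MD1 female replicate 4 was level with its top. Its log2 fold change was 0.10 (95% interval −0.11 to 0.32; edgeR adjusted p = 0.69).

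Sox10, which crest cells keep on the way to glia and melanocytes, lies at chr15:79154908-79165240 on the minus strand with 5 exons, and it rested on few reads. It was at 1.52, 0.698, 0.725 and 0 CPM in MD1 replicates 1 to 4 (32, 7, 3 and 0 reads), against a lowest value of 0.860, a median of 1.56 and a highest of 2.57 CPM in WT (8 to 63 reads). The MD1 mean was 45.9% of the WT mean, and 3 of the 4 MD1 libraries were below the lowest WT library, while the library labelled MD1 female replicate 1 was inside the WT range. The log2 fold change of −1.06 was the most negative among the 9 factors but had a 95% interval of −2.34 to 0.22 (edgeR adjusted p = 0.53). It was −1.87 ± 0.79 (SE) with limma-voom (adjusted p = 0.45) and −1.75 ± 0.77 (SE) with limma on log2 RPKM (adjusted p = 0.60). The log2 RPKM fit includes a replacement value for the 0 reads of MD1 female replicate 4.

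In MD1 female replicate 4, with 0 reads of Sox10, the WT mean level would have given 21.1 reads. A count of 0 in that library allows up to 0.228 CPM, taken as 3 reads, where the lowest WT library was at 0.860 CPM. In MD1 male replicate 2 the WT mean would have given 16.1 reads against 7 found, and in MD1 male replicate 3 it would have given 6.64 against 3 found. Their exact 95% Poisson intervals, 0.28 to 1.44 and 0.149 to 2.12 CPM, overlapped that of the lowest WT library, 0.371 to 1.69 CPM. Such limits cover counting error only. Without MD1 female replicate 4 the log2 fold change was −0.60, and without the library labelled MD1 female replicate 1 it was −2.02. In whole tissue, fewer Sox10-expressing cells and less Sox10 RNA per cell cannot be told apart.

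Foxd3, a forkhead factor of early crest cells and of pluripotent cells, lies at chr4:99656299-99658622 on the plus strand in 1 exon and was barely present. It had 4, 0, 0 and 0 reads in MD1 replicates 1 to 4, against 0 to 6 reads in WT, where only male replicate 1 had 0. In all, 4 reads of 49054544 came from MD1 and 17 of 97173568 from WT. The gene did not pass the filter on low counts and was not among those tested. Kept in by leaving the filter out, it had an edgeR adjusted p of 0.65. The WT mean level would have given 0.732 to 3.72 reads per MD1 library, so a lower level of Foxd3 in MD1 was not detectable at this depth.

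Ets1, an ETS-domain factor of cranial crest and also of endothelial and blood cells, lies at chr9:32636221-32757820 on the plus strand with 11 exon blocks. It was at 99.95, 88.7, 97.2 and 108 CPM in MD1 replicates 1 to 4, against a lowest value of 78.0, a median of 87.6 and a highest of 95.3 CPM in WT. In MD1, 3 of the 4 libraries were above the highest WT library, and male replicate 2 was inside the WT range. The means were 98.5 ± 8.16 CPM in MD1 and 87.8 ± 6.31 CPM in WT (SD). The log2 fold change was 0.17 (95% interval −0.0074 to 0.34), with an edgeR adjusted p of 0.51.

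Endothelial markers were read beside Ets1, since endothelium also expresses it. The summed level of 10 endothelial markers was 487, 383, 489 and 684 CPM in MD1 replicates 1 to 4, against 374 to 475 CPM in WT. For the sum as for Ets1, MD1 female replicate 4 was the highest MD1 library and male replicate 2 the lowest. All 10 markers were above the filter on low counts, and 8 of them had a log2 fold change above 0. Of the 10, 0 passed the threshold. Pecam1 and Kdr were under an unadjusted edgeR p of 0.05, where 9.79% of all genes were. Pecam1 had the highest log2 fold change of the list at 0.59, with 124 CPM in MD1 female replicate 4 and 53.8 to 71.9 CPM in the other MD1 libraries against 49.7 to 54.9 CPM in WT, and Sox18 the lowest at −0.26. The part of endothelial cells in the Ets1 level was not tested.

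**Figure D2:**
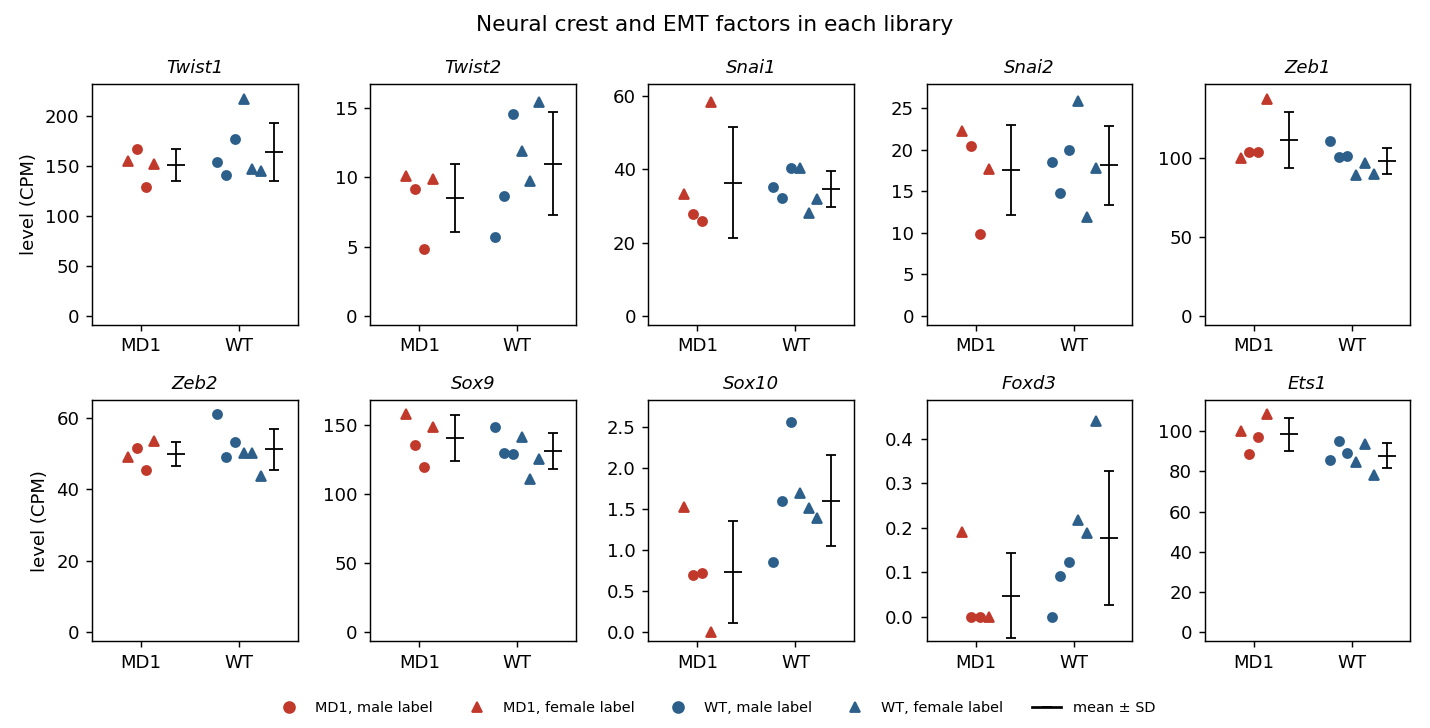
Level in CPM (y axis, from 0) of each of the 10 factors in the 4 MD1 libraries (red, left) and the 6 WT libraries (blue, right). Circles have a male label and triangles a female label, and bars are mean ± SD. MD1 and WT overlap in all 10 panels, and MD1 female replicate 4 is the highest library for Snai1 (58.5 CPM) and Zeb1 (137.7 CPM).

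The genotype effect was then fitted within each sex label, from 1 model of 4 groups. Within the male labels, 0 of the 9 factors passed the threshold, where 0.0188% of 15982 genes did. The edgeR adjusted p was 0.9995 for each of the 9, and 0 were under an unadjusted p of 0.05, where 3.8% of all genes were. Within the female labels, 0 of the 9 passed, where 0.00626% of genes did, with Zeb1 at the lowest edgeR adjusted p of 0.20. Zeb1, Sox9 and Ets1 were under an unadjusted p of 0.05 there, 3 of the 9, where 19.1% of all genes were. For the difference between the sex labels 0 of the 15982 genes passed, and 1662 were under an unadjusted p of 0.05, with Snai1 alone among the factors. A library with a female label carried Y-linked reads, so these contrasts follow the labels and not the sex of the tissue.

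Snai1 had the largest difference between the sex labels among the 9 factors. Its log2 fold change was 0.45 ± 0.23 in female labels and −0.42 ± 0.24 in male labels (SE). The difference was 0.87 ± 0.33 (SE), with an unadjusted edgeR p of 0.025 and an adjusted p of 0.47. The MD1 female labels held 33.2 CPM in replicate 1 and 58.5 CPM in replicate 4, the library apart on the first principal component. WT female labels held 28.0 to 40.2 CPM. MD1 male labels held 27.7 and 25.9 CPM, against 32.1 to 40.4 CPM in WT. Zeb1 was at 0.37 ± 0.13 in female labels and −0.0039 in male labels, and Sox9 was at 0.28 ± 0.12 in female labels and −0.086 in male labels. Neither difference passed, with an edgeR adjusted p of 0.49 for each. In female labels Zeb1 was at 100.1 CPM in MD1 replicate 1 and 137.7 CPM in replicate 4, against 89.1 to 97.2 CPM in WT. Sox10 was below 0 in both, at −0.88 ± 0.82 in female labels and −1.29 in male labels, and Twist1 and Twist2 were below 0 in both as well.

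**Figure D3:**
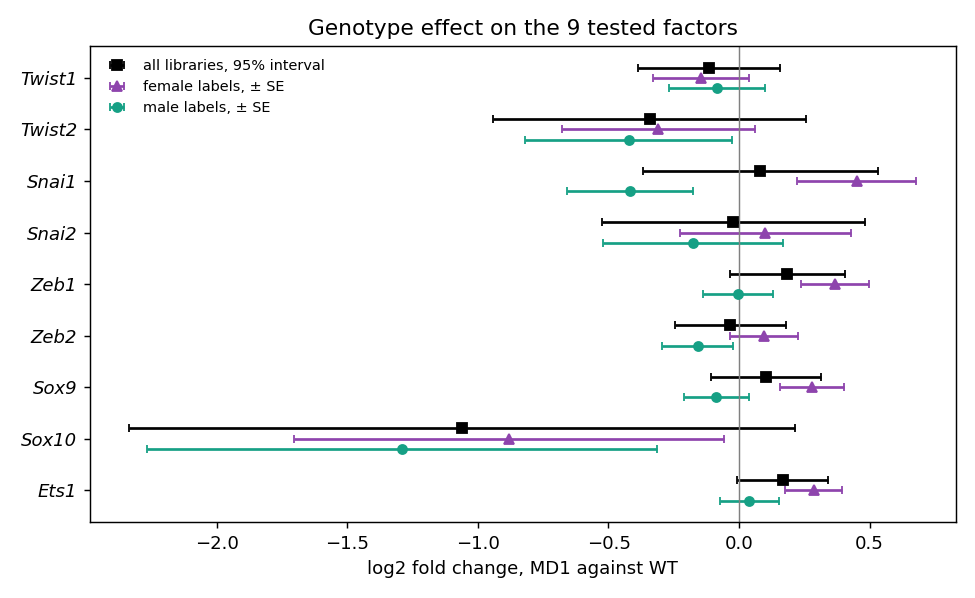
Log2 fold change of MD1 against WT (x axis) for the 9 factors tested (y axis). Black squares are all libraries with the 95% interval of the edgeR fit, purple triangles the female labels and green circles the male labels, each ± SE. The black intervals all contain 0, and that of Sox10 is the widest, from −2.34 to 0.22.

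Ratios of related factors within a library do not depend on how libraries are scaled, and 4 such ratios were compared by an exact permutation test over all 210 arrangements of the genotype labels (2-sided, smallest possible p of 0.0048). None passed after adjustment over the 4. The log2 ratio of Sox9 to Sox10 counts was 6.67, 7.5, 7.14 and 11.93 in MD1 replicates 1 to 4, against 5.64 to 7.35 in WT. The 11.93 of MD1 female replicate 4 rests on 0 reads of Sox10, so the 0.5 added to each count sets its size. With 3 reads in place of 0, a setting chosen after seeing the data, that ratio was 9.35. The mean was higher by 1.93 in MD1 with 0.5 added (exact p = 0.014, adjusted over the 4 ratios 0.057). With 3 reads in place of 0 it was higher by 1.29 (exact p = 0.019, adjusted 0.067). With 0.5 added the difference was 0.73 without MD1 female replicate 4 and 2.13, with an adjusted exact p of 0.032, without WT male replicate 1.

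The log2 ratio of Zeb1 to Zeb2 was 1.03, 1.02, 1.19 and 1.37 in MD1 replicates 1 to 4, against 0.83 to 1.04 in WT. The lowest MD1 libraries lay just inside the top of the WT range. The mean was higher by 0.21 in MD1 (exact p = 0.033, adjusted 0.067). Twist1 to Twist2 differed by 0.24 on the log2 scale (exact p = 0.46, adjusted 0.61), and Snai1 to Snai2 by 0.069 (exact p = 0.81, adjusted 0.81). Among MD1 libraries the Snai1 to Snai2 ratio ran from 0.44 to 1.73, wider than the 0.64 to 1.23 of WT.

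**Figure D4:**
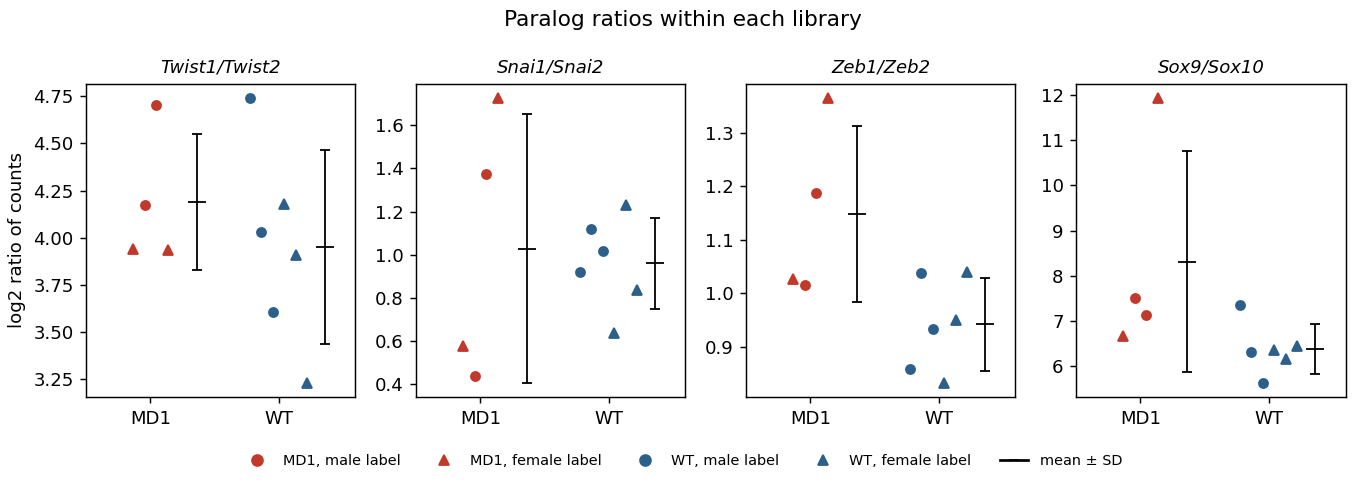
Log2 ratio of the counts of related factors (y axis, a separate scale in each panel) in the MD1 libraries (red, left) and the WT libraries (blue, right), with mean ± SD. For Sox9/Sox10 the highest MD1 library is at 11.93, a value that rests on 0 reads of Sox10 with 0.5 added, above the WT range of 5.64 to 7.35.

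Genes that act with these factors were read in the same fit, in lists chosen for the pathway, and 0 genes of any list passed the threshold, with edgeR, DESeq2 or either limma fit. Unadjusted calls are given for the lists that hold any, where 9.79% of all genes tested were under an unadjusted edgeR p of 0.05. Of all genes tested, 49.5% had a log2 fold change below 0. The neural plate border list, whose genes act before the crest factors, had 10 of 11 genes tested, 6 with a log2 fold change above 0 and 4 below, with a median of 0.12. Zic2 was the highest at 0.63, with 98.0 CPM in MD1 female replicate 4 and 25.1 to 30.2 CPM in the other MD1 libraries against 14.4 to 40.3 CPM in WT, and Msx1 was the lowest at −0.29. Of the inducing BMP, WNT, FGF and TGF-beta ligands, 8 of 9 were tested, 5 above 0 and 3 below, with a median of 0.083. Bmp2 was the highest at 0.97, carried by MD1 female replicate 4 at 10.1 CPM where the other 9 libraries had 1.496 to 2.473 CPM, and Tgfb2 the lowest at −0.23.

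The partners of the TWIST proteins are E proteins, and the Id proteins hold those partners away from DNA. Of these 9 genes 7 were tested, 3 above 0 and 4 below, with a median of −0.093. Tcf3, which encodes the E proteins E12 and E47, was at 295 to 395 CPM in MD1 against 382 to 433 CPM in WT, with a log2 fold change of −0.25, an unadjusted p of 0.0094 and an edgeR adjusted p of 0.50. Tcf4, another E protein gene, was the highest of the list at 0.20 and Id4 the lowest at −0.35. Hand1 and Hand2, relatives of Twist1, were too low to test. Hand1 had 1.24, 0, 0 and 7.07 CPM in MD1 replicates 1 to 4, against at most 0.046 CPM in WT, and Hand2 had 0.428, 0, 0 and 0.760 CPM in MD1 replicates 1 to 4, against 0 in every WT library.

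The other crest factors and relatives, which include Ets2 and the ETV genes, had 12 of 13 genes tested, 6 above 0 and 6 below, with a median of 0.013. Ets2, at 0.36, was the only one under an unadjusted p of 0.05. Tfap2c, an AP-2 factor of crest and surface ectoderm, was the highest at 0.68, with 98.9 CPM in MD1 female replicate 4 and 21.5 to 27.4 CPM in the other MD1 libraries against 21.2 to 31.5 CPM in WT. Scrt1, a neuronal relative of Snai1, was the lowest at −0.38. 
The epithelial genes, among them targets that SNAIL and ZEB proteins repress, had all 16 of the genes tested above 0, with a median of 0.30. Of all genes tested, 49.5% were below 0. Epcam, Cldn4 and Krt8, 3 of the 16, were under an unadjusted edgeR p of 0.05, where 9.79% of all genes were. Cdh1 was at 63.6 ± 8.15 CPM in MD1 and 59.2 ± 4.47 CPM in WT (SD), with a log2 fold change of 0.10 (edgeR adjusted p = 0.69). Epcam, an epithelial adhesion gene, was at 0.31, and Cdh3 was the lowest at 0.088. Ovol1 was the highest at 0.65, with 3.19 CPM in MD1 female replicate 4 and 0.299 to 0.725 CPM in the other MD1 libraries against 0.219 to 1.51 CPM in WT. The summed level was 570, 503, 630 and 698 CPM in MD1 replicates 1 to 4, against 449 to 576 CPM in WT, so that MD1 male replicate 3 and female replicate 4 were above WT. The median was 0.11 without MD1 female replicate 4 and 0.0095 without both.

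The mesenchymal effectors, genes switched on in EMT, had 11 of 11 tested, 6 above 0 and 5 below, with a median of 0.025. Vim, the intermediate filament gene of mesenchyme, was at 594 ± 39.4 CPM in MD1 and 584 ± 73.4 CPM in WT (SD). Postn was the highest at 2.52, with 46.0, 5.98, 6.53 and 183 CPM in MD1 replicates 1 to 4 against 5.91 to 15.3 CPM in WT. Of the MD1 libraries, replicates 1 and 4 alone exceeded WT. Tnc was the lowest at −0.56. Postn and Sparc, 2 of the 11, were under an unadjusted p of 0.05.

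Lists downstream of the SOX factors were read beside Sox10 and Sox9. The genes of glia and melanoblasts had 10 of 13 tested, 4 above 0 and 6 below, with a median of −0.20 that was −0.014 without MD1 female replicate 4. Erbb3, the neuregulin receptor of glial precursors, was at 48.8 ± 5.08 CPM in MD1 and 44.6 ± 7.63 CPM in WT (SD), Kit was the highest of the list at 0.18 and the pigment gene Pmel the lowest at −0.77. Their summed level was 208 to 226 CPM in MD1 and 193 to 246 CPM in WT. All 4 MD1 sums were inside the WT range, but Kit and Erbb3 carried much of the sum. In MD1 female replicate 4, where Sox10 had 0 reads, Kit was at 68.0 CPM and Erbb3 at 56.3 CPM, each above every WT library. Ngfr, at 30.03 CPM against 18.3 to 27.28 CPM, and Mbp, at 26.16 CPM against 19.66 to 24.5 CPM, were above every WT library as well. The same library was below every WT library for Fabp7, a glial precursor gene, at 6.24 CPM against 17.3 to 27.4 CPM, and for Ednrb, the endothelin receptor of crest cells, at 12.01 CPM against 13.5 to 21.8 CPM. It was also below every WT library for Cdh19 (0 CPM against 0.491 to 1.83 CPM) and Pmel (2.81 CPM against 2.90 to 29.5 CPM). These genes were singled out after their values were seen.

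The cartilage genes of SOX9 had 9 of 13 tested, 4 above 0 and 5 below, with a median of −0.083. Col2a1, the main collagen gene of cartilage and a direct target of SOX9, was at 717 ± 93.6 CPM in MD1 and 759 ± 58.5 CPM in WT (SD), with a log2 fold change of −0.083. Hapln1, the link protein gene, was the highest at 0.80, with 123, 136, 166 and 347 CPM in MD1 replicates 1 to 4 against 71.2 to 146 CPM in WT. Col9a3 was the lowest at −0.42, and Hapln1 was the only gene of the list under an unadjusted p of 0.05.

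**Figure D5:**
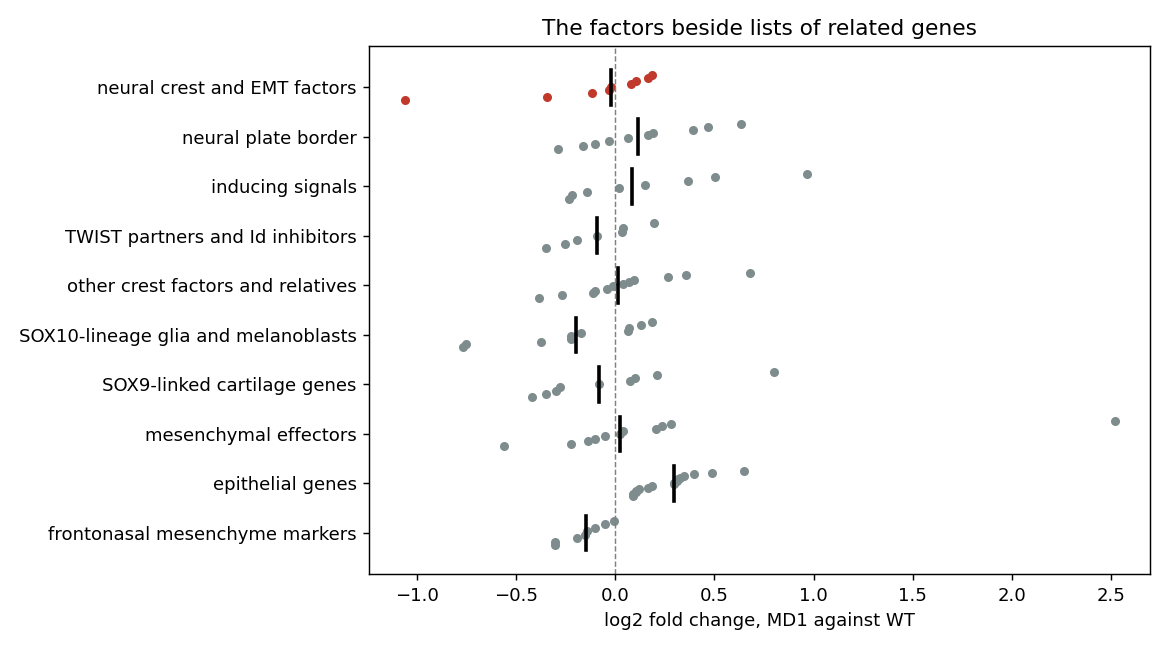
Log2 fold change of MD1 against WT (x axis) for each gene tested (points) of the crest and EMT factors (red, top) and of 9 lists of related genes (grey), with each list's median as a black bar. The median of the factors is −0.02, that of the epithelial genes 0.30 and that of the frontonasal mesenchyme markers −0.15, and Postn is the point at 2.52.

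Markers of the cell types in the tissue were read beside the factors. The markers of frontonasal mesenchyme, the crest-derived cells that express Twist1, were all detected. All 8 had a log2 fold change below 0, where 49.5% of all genes did, with a median of −0.15 and 0 past the threshold. Lmx1b was the highest at −0.0060 and Prrx2 the lowest at −0.31. Their summed level was 1357, 1320, 1156 and 738 CPM in MD1 replicates 1 to 4, against 1149 to 1574 CPM in WT, and the median was −0.0078 without MD1 female replicate 4. In that library, with the lowest mesenchyme sum, Twist1 was at 151.8 CPM, inside the WT range, and Sox9 at 148.5 CPM, level with the top of it.

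The forebrain list had a median of 0.021 over 8 genes, with Rax the lowest at −0.81, and the olfactory list a median of 0.019 over 7 genes, with Sp8 the highest at 0.26 and Neurog1, the only gene of either list under an unadjusted p of 0.05, the lowest at −0.74. Erythroid and hypoxia genes were highest in MD1 female replicate 4, and yolk sac genes in the library labelled female replicate 1. Over all genes tested, 9.79% were under an unadjusted edgeR p of 0.05. The erythroid sum was 19700 CPM in MD1 female replicate 4, against 2570 to 4144 CPM in the other MD1 libraries and 2914 to 4184 CPM in WT, and the list's median was 1.02 over 6 genes, with Klf1 the lowest at 0.21 and 2 of the 6 under an unadjusted p of 0.05. Without MD1 female replicate 4 that median was −0.078. The yolk sac sum was 370, 3.09, 4.35 and 99.0 CPM in MD1 replicates 1 to 4, against 6.62 to 35.1 CPM in WT, and the median was 3.09 over 4 genes, from Trf at 1.32 to Apob at 4.19, all 4 under an unadjusted p of 0.05. Without MD1 replicate 1 the yolk sac median was 0.996. The hypoxia median was 1.91 over 12 genes, all 12 under an unadjusted p of 0.05, from Ldha at 0.70 to Adm at 3.99, and it was 0.43 without MD1 female replicate 4. The part of these cells and of this response in the levels of the crest and EMT factors was not tested.

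The genes whose level across the 10 libraries was most like that of Sox10, Foxd3 and Ets1 were listed by Pearson's r of log2 CPM, as a description over libraries that differ in depth. For Ets1 these were Itga9 (r = 0.958), Csnk2a2 (0.934), Kctd9 (0.916), Arhgap20 (0.914) and Larp4b (0.906), the highest of 15227 genes compared. For Sox10 they were Ccdc102a (0.988), Mief1 (0.985), Gm20479 (0.983), Pbx2 (0.978) and Dvl3 (0.968). Without MD1 female replicate 4 the r of Ccdc102a with Sox10 was 0.950, and that of Dvl3 was 0.843. For Foxd3, with at most 6 reads in a library, they were Gm26616 (0.949), H2afx (0.927), Mfsd12 (0.917), Mpnd (0.910) and Jund (0.907), and no likeness can be read from so few reads.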

How the data were processed

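RNA from E10.5 FNP tissue of 4 MD1 and 6 WT libraries was sequenced with an unstranded kit. According to the study's methods, the authors trimmed single-end reads with Trim Galore 0.4.4, aligned them with HISAT2 2.0.5 to GRCm38.p6 and quantified genes in SeqMonk, and bcl2fastq is named in the processing notes of the submitters. The deposited counts are raw reads per gene. The deposited log2 RPKM values are the authors' values per transcript length and library size, with 0 reads replaced by a small value before the logarithm. Columns of genotype averages that the authors deposited, given as scores since they are not whole counts, were not used.

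Of 35591 entries in the count table, 27 symbols that had become dates were restored, and of 49 repeated identifiers the entry with more reads was kept. Sample groups came from the labels. Counts were tested with edgeR 4.0.16 in R 4.3.3 (filterByExpr, TMM, quasi-likelihood test, all 10 libraries, no covariate, 15452 autosomal genes, Benjamini-Hochberg adjustment, threshold 0.05). The effects by sex label used 15982 genes on all chromosomes. CPM are per TMM-scaled library, fold changes are log2, and 95% intervals use the t quantile of the fit. Paralog ratios added 0.5 to each count. Depth ranged from 4195119 to 24125084 counts, and intervals for low counts cover counting error only. Gene spans equal those of GENCODE M21. The scripts were tested on simulated data. Alternatives were RLE and total-count scaling, no filter, DESeq2 1.42.0, limma 3.58.1 (voom and log2 RPKM), sex label, replicate block, all chromosomes and left-out libraries.

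The named genes were all 10 factors in every library, the genes past the threshold and the highest and lowest of each list (some are not reported here), and for Sox10, Foxd3 and Ets1 the 5 genes of highest r at a mean of at least 1 CPM. Tcf3, Ets2, Kdr, Cldn4, Krt8 and Sparc were named for an unadjusted edgeR p under 0.05. These genes and Cdh1, Epcam, Vim, Erbb3, Fabp7, Ednrb, Cdh19, Ngfr, Mbp, Col2a1, Hand1 and Hand2 were chosen after their values were seen. So were the promoter motif, the removal of MD1 replicates 3 and 4 together and the setting of 0 reads at 3 in the ratios. The members and lists were chosen with earlier results of these data known.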

Additional observations from a re-analysis of the deposited data

Results flagged for a closer look

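Of 58 groups of 4 or more libraries examined for a single library far from the others, 6 held one. The rule's nominal rate of about 1 in 20 assumes independent, normally spread values. These groups share libraries and some values are tied at 0, so 6 of 58 cannot be set against that rate. All 6 were MD1 groups. Zeb1 was at 137.7 CPM in MD1 female replicate 4, the highest of the 4 MD1 libraries. The log2 ratio of Sox9 to Sox10 was 11.93 in the same library, where Sox10 had 0 reads, and 9.35 with 3 reads in their place. The summed level of the erythroid markers was 19700 CPM and that of the hypoxia-response genes 13170 CPM, both again in MD1 female replicate 4. Foxd3 was at 0.190 CPM in MD1 replicate 1 (labelled female), from 4 reads, and at 0 in the other 3 MD1 libraries. The summed level of the neural plate border genes was 519.6 CPM in MD1 male replicate 3, the lowest of the 4.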

How the results depend on the processing

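The call of 0 crest and EMT factors held under all 21 alternatives, and 175 of 189 log2 fold changes of the factors kept their sign. The log2 fold change of Snai1 was −0.076 with limma on log2 RPKM, −0.086 with the replicate block, −0.36 without both libraries labelled MD1 female and −0.18 without MD1 replicates 3 and 4 together. Snai2 was at 0.052 with limma-voom and 0.23 without MD1 replicates 3 and 4 together, and Sox9 at −0.029 without both libraries labelled MD1 female. The difference of the Snai1 to Snai2 ratio was −0.054 without both libraries labelled MD1 female. The cause was not tested.

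Leaving out 1 library at a time gave Snai1 −0.24 to 0.20, Snai2 −0.16 to 0.15 and Zeb2 −0.075 to 0.021. It gave a median over the factors of −0.06 (without MD1 replicate 4) to 0.15 (without MD1 replicate 3), a Snai1 to Snai2 ratio difference of −0.16 to 0.27 and a Sox9 to Sox10 difference of 0.73 to 2.48. For the differences between the sex labels only RLE scaling and no filter were tried, and all 18 values kept their sign. Of 315 list medians under the 21 alternatives, 42 moved by more than 1 SD. That SD was taken from the spread of the factors between WT libraries.

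No pairing by replicate number was seen, in that the correlation of same-numbered libraries ran from −0.12 to 0.050. That of different-numbered libraries ran from −0.25 to 0.30, a wider spread, so this check cannot exclude pairing. The replicate block called 0 genes and 0 factors, with a median over the factors of −0.091. Over all genes, the count called was 12, against 51 with DESeq2, 5 with limma on log2 RPKM, 8 with total-count scaling, 6 without both libraries labelled MD1 female and 4 to 13 with 1 library left out. Limma on log2 RPKM gave a median of −0.096 over all genes and −0.11 over the factors. Depth limits Sox10 and Foxd3 most, and in MD1 male replicate 3 a count of 0 allows up to 0.724 CPM.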
